A study of Mus musculus with 207 samples.

Results

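The matrix metalloproteinases and their tissue inhibitors were examined in cultures of bone marrow macrophages from 207 F2 mice. The 10 genes were chosen by name: the proteinases Mmp2, Mmp8, Mmp9, Mmp12, Mmp13, Mmp14 and Mmp19 and the inhibitors Timp1, Timp2 and Timp3. Every probe set annotated to 1 of these genes alone was taken, which gave 23 of the 45037 probe sets of the array and 10 of the 18193 genes it names. The mice were aged 16 weeks, came from an intercross of the strains AKR and DBA/2, and all of them, 93 females and the remaining males, were apoE-deficient, so no group with the intact gene was measured. Adherent marrow cells of each mouse were grown to confluence with L-cell conditioned medium, a source of the growth factor M-CSF, received no other treatment, and were measured on 1 array per mouse. Each mouse is therefore 1 replicate, and since the F2 mice differ in genotype, the spread between mice holds genetic as well as technical variation. The title of each sample holds a number, called the code number here, which starts at 33 in females and at 9 in males. What it counts is not given in the sources used here. The prefix before the number differs between the sexes and is the same within each, so sex and title series cannot be told apart. Whether equal numbers mean the same in both sexes is not given either. The study compared gene expression between the sexes, and the relations to the code number, to other transcripts and among the members were examined in each sex apart.

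Matrix metalloproteinases are zinc-dependent enzymes that cut collagens, elastin and other components of the extracellular matrix. Most are secreted as inactive proenzymes and become active when the propeptide is removed, and the tissue inhibitors block the active enzymes by binding in the catalytic cleft. Macrophages are a major source of several of them, and in atherosclerotic lesions of apoE-deficient mice they are known for breaking down the matrix of the arterial wall.

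Mmp13, Mmp12 and Mmp8 lie in 1 cluster. On chromosome 9, 10 consecutive protein-coding genes in RefSeq (GRCm38.p6) are all matrix metalloproteinases, in the order Mmp13, Mmp12, Mmp1b, Mmp3, Mmp1a, Mmp10, Mmp8, Mmp27, Mmp20 and Mmp7, and 3 of them are members. The 250 bases before the start of Mmp13 (chr9:7272264-7272513), Mmp12 (second of its starts, chr9:7347124-7347373) and Mmp8 (chr9:7558179-7558428), all on the plus strand, are shown because Mmp13 and Mmp12 fell along the code number while Mmp8 rose. Capitals mark TGANTCA, the recognition element of the transcription factor AP-1, which reads the same on both strands.
Mmp13: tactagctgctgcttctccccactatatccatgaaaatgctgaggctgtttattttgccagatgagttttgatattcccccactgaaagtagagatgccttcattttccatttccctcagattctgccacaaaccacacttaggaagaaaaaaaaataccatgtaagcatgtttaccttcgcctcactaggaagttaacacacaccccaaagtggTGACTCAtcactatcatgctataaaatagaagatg
Mmp12: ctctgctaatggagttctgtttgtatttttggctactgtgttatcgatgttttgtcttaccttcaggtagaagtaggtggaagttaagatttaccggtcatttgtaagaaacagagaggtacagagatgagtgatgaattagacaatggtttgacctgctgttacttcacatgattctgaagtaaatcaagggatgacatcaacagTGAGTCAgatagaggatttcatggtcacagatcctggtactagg
Mmp8: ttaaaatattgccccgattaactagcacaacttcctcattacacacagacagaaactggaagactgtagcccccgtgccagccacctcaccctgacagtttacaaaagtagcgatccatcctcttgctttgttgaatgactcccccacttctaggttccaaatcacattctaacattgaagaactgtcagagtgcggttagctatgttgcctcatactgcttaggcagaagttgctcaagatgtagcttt
The element was TGACTCA, 35 bases before the start, in Mmp13 and TGAGTCA, 44 bases before the start, in Mmp12. It was not in the window of the first start of Mmp12, so the Mmp12 window shown is the one that holds it. Nor was it in the windows of Mmp8, Mmp14, Timp1, Timp2 and Timp3, of which Timp1 and Timp2 also fell in both sexes. Of 32851 such windows over all genes, 2217 (6.75%) hold the element. A match describes the letters of a window and is not a measured site, and a relation of the element to the trends was not tested. Windows were at hand for 7 of the 10 members.

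The values are MAS5 signals, the brightness of a probe set after the mismatch probes are taken into account, on a linear scale on which every array has the same trimmed mean of 500. The median signal of an array was 51.1 to 112.4 in females and 54.7 to 122.3 in males. It was 76 to 122.3 in 24 males numbered 55 to 78 and 54.7 to 78.9 in the other 90, so these 24 stand apart and results in males are given with and without them where they differ. The ratio of the 3′ to the 5′ control probe sets of Gapdh, a measure of RNA integrity and labelling, was 0.917 ± 0.065 (SD) in females and 0.791 ± 0.030 (SD) in males. All 11 macrophage markers, among them Csf1r, Adgre1 and Cd68, passed the filter of a signal of at least 100 in 69 of the 207 arrays, and none of 8 measured lymphocyte and mast cell markers did. The cultures also held stromal transcripts: 14 of 16 markers passed the filter, and their summed signal was 4579.7 to 166248 in females and 4183 to 91434 in males.

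Of the 23 probe sets, 22 passed the filter, and the other was 1 of 6 for Timp2, with a median signal of 32.3 in females and 28.6 in males. All 10 genes passed by their brightest probe set, which stands for the gene below. Probe sets differ in efficiency, so levels of different genes are not set against each other, and each gene is compared only with itself.

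Mmp2 and Mmp9 are the gelatinases, which cut denatured collagen and basement membrane collagen. The Mmp2 signal was 124.4 to 5435 in females, with a median of 1896, and 180.3 to 4921 in males, with a median of 1279. The Mmp9 signal was 1116 to 27823 in females (median 12477) and 1827 to 36012 in males (median 12273). Both genes had a signal of at least 100 on every array, and the ranges of the sexes overlapped almost fully. The 24 males numbered 55 to 78 had the higher Mmp9 signals, with a lowest value of 16024 and a median of 26246, against a median of 10629 and a highest value of 23794 in the other 90 males.

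Mmp8 and Mmp13 are collagenases, which open the triple helix of fibrillar collagen, and Mmp8 is best known from neutrophils. The Mmp8 signal was 105.2 to 26923 in females (median 2298) and 161 to 27729.7 in males (median 3158), a range of 256-fold and 172-fold. The Mmp13 signal was 106.6 to 9219.6 in females (median 953) and 114.6 to 9381 in males (median 1853). Both were thus near the floor of 100 in some mice and among the bright transcripts in others, in both sexes.

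Mmp12, the macrophage elastase, had a signal of 1676 to 40124 in females (median 11360.2) and of 5738 to 43951 in males (median 22806). Mmp14, a membrane-anchored enzyme that activates the proenzyme of Mmp2 at the cell surface, had a signal of 2076 to 14627 in females (median 9851) and 3415 to 17722 in males (median 12181). Mmp19, a secreted enzyme that cuts basement membrane components, had a signal of 260.0 to 1095 in females (median 535) and 436 to 2385 in males (median 715). These 3 genes had the higher medians in males, and the ranges of the sexes overlapped in each.

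Of the inhibitors, Timp2, which also takes part in the activation of proMmp2 by Mmp14, varied least, with a signal of 4556 to 21319 in females (median 13176) and 6203 to 25442 in males (median 14428). Timp1, a secreted inhibitor of most of these enzymes, had a signal of 89 to 3621 in females (median 788.5) and 115.5 to 4291 in males (median 1254). Timp3, which binds to the matrix and also inhibits ADAM proteases, had a signal of 5.1 to 607 in females (median 129.6) and 6.9 to 568 in males (median 202). Its signal reached 100 in 56 of 93 females and in 97 males, so its lowest values lie in the background of the array.

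**Figure D1:**
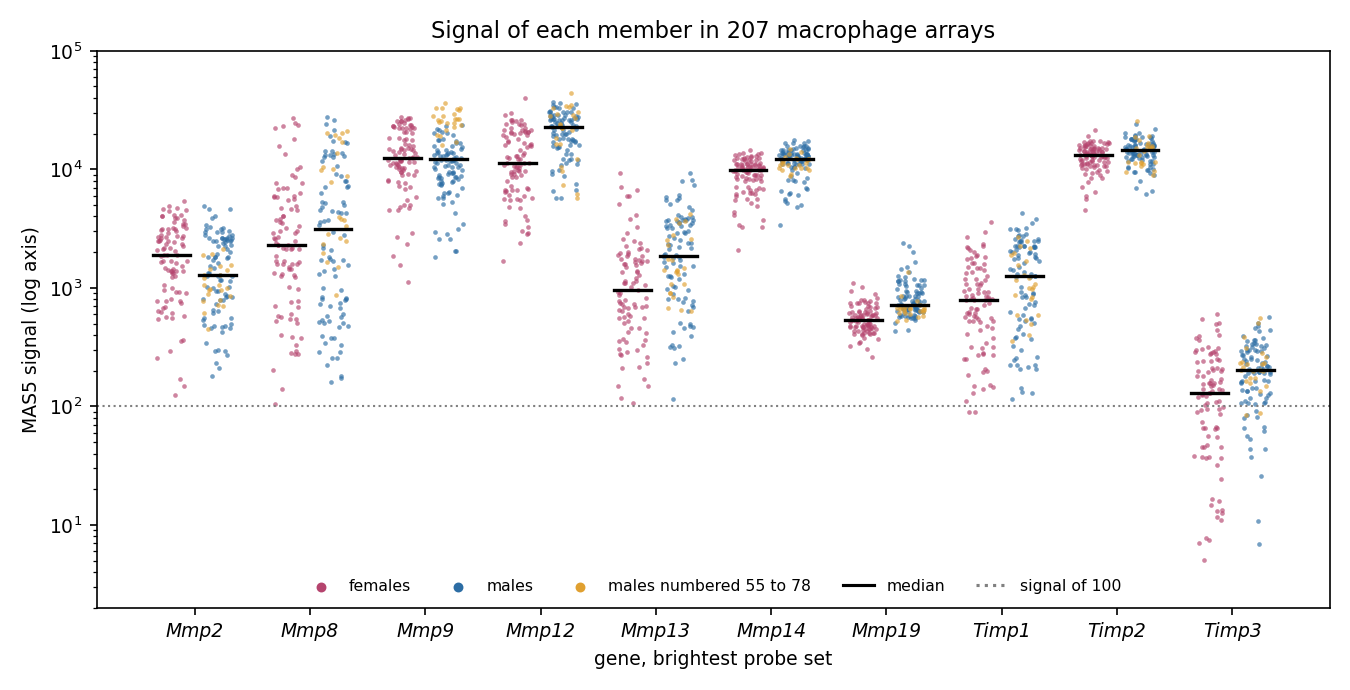
The MAS5 signal of each gene's brightest probe set (log axis) is plotted for each of 207 mice by sex, with the 24 males numbered 55 to 78 in a colour of their own, a bar at the median of each sex and a dotted line at a signal of 100. Mmp8 spans from about the dotted line to 26923 in females and 27729.7 in males, while Timp2 stays between 4556 and 25442.

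The spread between mice set the genes apart. As the SD of log2(signal + 1), Mmp8 had 1.79 in females and 2.04 in males, which ranked 69th and 25th of 10212 genes, where the median gene had 0.32 and 0.33. Timp3 (1.59 and 1.03), Mmp13 (1.40 and 1.27) and Timp1 (1.23 and 1.27) followed, and Mmp2 had 1.09 in males. At the other end, Timp2 (0.39 and 0.37), Mmp19 (0.38 and 0.46) and Mmp14 (0.54 and 0.43) lay above the median gene in both sexes. Timp3 had values under 100 in 37 females and 17 males, and on a log scale small differences between such values are large.

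Mmp12, Mmp14 and Mmp19 were higher in males, and no member was higher in females. The mean Mmp12 signal was 13464 ± 7825 (SD, n = 93) in females and 21687 ± 8404 (SD) in males, 1.61-fold (Mann-Whitney test, 2-sided, Bonferroni-adjusted over 20036 probe sets, p = 1.12e-06), and the male was the higher in 76.5% of all pairs of a female and a male. Mmp14 was 1.27-fold higher in males (9299.6 ± 2797.0 against 11773 ± 2933, adjusted p = 3.40e-05) and Mmp19 was 1.48-fold higher (559 ± 152 against 827 ± 329, adjusted p = 1.24e-11). The distributions overlapped in each gene. By the same test 30.5% of the 10212 genes passed in either direction 11% being higher in males and 19.5% higher in females, so that 3 of 10 members is the share of the background for either direction. The median log2 ratio of males over females was 0.45 over the members, each by its brightest probe set. It was 0.0046 over all tested probe sets, which are not only the brightest, so the sets are unlike.

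Mmp13 had 1.61 times the female mean in males (1480.0 ± 1634.5 against 2378 ± 1836), with an adjusted p of 0.115, and Timp1 had 1.53 times (928 ± 706 against 1418 ± 963), with an adjusted p of 1. Mmp2 was the member with the lowest ratio, 0.766 of the female mean (2079.8 ± 1301.4 against 1594 ± 1063, adjusted p = 1). Mmp8, Mmp9, Timp2 and Timp3 had ratios of 1.37, 1.02, 1.10 and 1.36 and did not pass either. Without the 24 males numbered 55 to 78 the ratio of Mmp9 was below 1 (log2 ratio -0.34, adjusted p = 1), and its other probe set had a ratio of 0.886 over all males. With Benjamini-Hochberg adjustment of the same p-values 8 members passed, 7 higher in males and Mmp2 higher in females, where 64.2% of all genes passed, 27.7% higher in males and 36.4% higher in females.

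Other probe sets of a gene did not always give the same answer. Over all 20036 probe sets 33.2% passed, 16.6% higher in females and 16.6% higher in males. Those of Mmp19 (2.11-fold higher in males, adjusted p = 1.06e-25) and Mmp14 (1.58-fold, adjusted p = 1.21e-14) passed, while a further probe set of Mmp14 was lower in males, at 0.849 of the female mean (adjusted p = 1). The 3 dimmer probe sets of Timp3 were 1.64-fold to 1.73-fold higher in males and passed, unlike the brightest, and of the 5 tested for Timp2 only 1 passed, at 1.35-fold. Spearman's rho between the brightest and the other tested probe sets was 0.981 to 0.985 for Mmp2 and Mmp9, and as low as 0.593 for Mmp14 in males and 0.510 for Timp2 in females. So a ratio of the sexes stands for its probe set, and a transcript form or a base difference between strains under a probe was not tested.

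**Figure D2:**
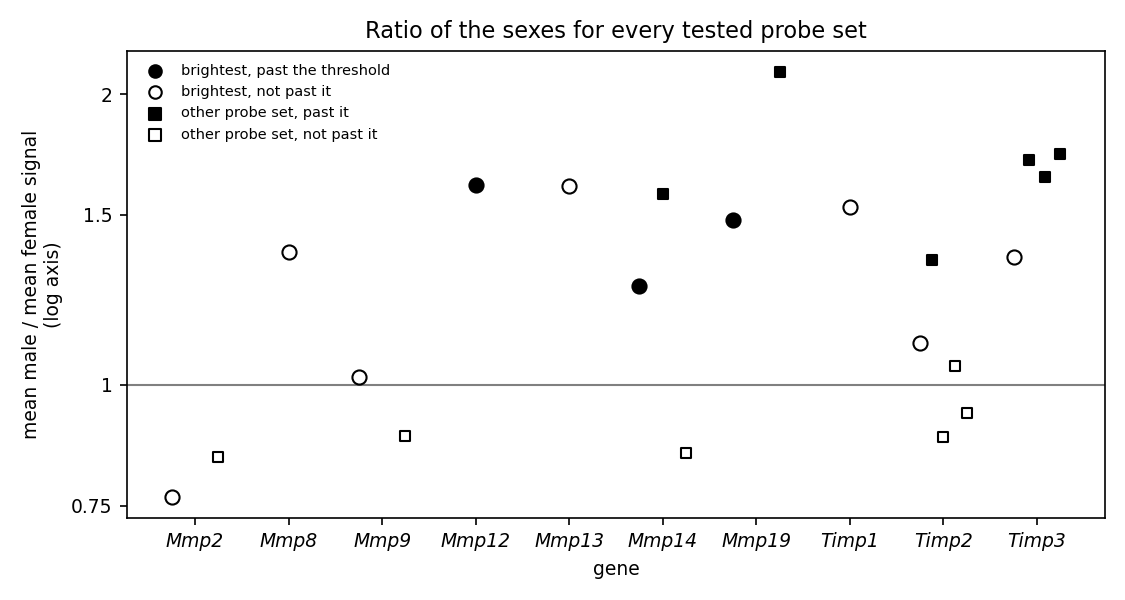
The ratio of the mean male to the mean female signal (log axis) is shown for each of 22 tested probe sets, circles for the brightest probe set of a gene and squares for the others, filled where the Bonferroni-adjusted p was below 0.05. Mmp14 has filled symbols at 1.27 and 1.58 and an open one at 0.849, and all filled symbols lie above 1.

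Each of the 3 calls was kept without the males numbered 55 to 78 and over the 89 code numbers that both sexes have, but none was kept in every setting. The Gapdh ratio, 0.803 to 1.12 in females and 0.731 to 0.863 in males, moved with sex: with it and the actin ratio as covariates (limma), Mmp12 (log2 ratio 0.43, adjusted p = 1) and Mmp19 (0.37, adjusted p = 1) did not pass, while Mmp14 (0.67, adjusted p = 5.04e-05) and Mmp8 (2.11, adjusted p = 0.00125) did. Scaling every array to the same median moved the median log2 ratio of all tested probe sets from 0.0046 to -0.13, and Mmp14 (0.22, adjusted p = 1) then did not pass. Col1a1, a stromal transcript, was also higher in males by its brightest probe set (1.62-fold, adjusted p = 0.00107). Its other probe set, at 1.22-fold, did not pass, and 3 of 14 tested stromal markers passed, all higher in males.

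Along the code number the members split into those that rose and those that fell. Slopes are log2(signal + 1) per 10 numbers ± SE, from limma with Benjamini-Hochberg adjustment over 20036 probe sets. In females 7 of 10 members passed, 3 rising and 4 falling, and in males 10 of 10, 4 rising and 6 falling. By the same test 66.1% of all genes passed in females and 67.6% in males (30.7% rising and 35.4% falling, and 33.5% and 34.1%), so that passing is common and the size of a slope tells more. The median slope of the members, each by its brightest probe set, was -0.020 in females and -0.056 in males. Over all tested probe sets, not only the brightest, it was 0.0028 and 0.0016.

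Mmp8 rose most. In the 31 females with the lowest numbers (33 to 64) its signal was 105.2 to 2916, with a median of 569.9, and in the 31 with the highest (96 and above) it was 1676 to 26923, with a median of 5909, 10.4 times as high. In males the medians were 642 in the lowest 38 (numbers 9 to 46; 161 to 2074) and 8987 in the highest 38 (85 and above; 1313 to 27729.7), 14.0 times as high. The lowest-numbered and highest-numbered mice overlapped in each sex, as they did for every member. The slope was 0.52 ± 0.042 in females (adjusted p = 2.16e-19; Spearman's rho 0.80, Pearson's r of log2 values 0.78) and 0.49 ± 0.035 in males (adjusted p = 1.80e-24; 0.78 and 0.79), the 16th largest among the rising genes in each sex. In the 24 males numbered 55 to 78 alone it was 1.51 ± 0.27 (adjusted p = 0.000223).

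Mmp2 rose with a slope of 0.35 ± 0.027 in females (adjusted p = 9.45e-21; rho 0.81, r 0.80) and 0.26 ± 0.019 in males (adjusted p = 7.92e-24; rho 0.80, r 0.78). Its median went from 686 in the lowest-numbered to 3027 in the highest-numbered females, and from 692 to 2631 in males. Mmp14, which acts on Mmp2, rose by 0.13 ± 0.015 in females (adjusted p = 6.60e-13; rho 0.63) and 0.0734 ± 0.010 in males (adjusted p = 4.96e-10; rho 0.45). The Mmp14 median was 6348 in the lowest, 10836 in the middle and 10530 in the highest numbers of females. In males it was 10517, 11982 and 13164.

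Among the members, Timp1 had the steepest fall. Its median went from 1064 in the lowest-numbered females (273 to 3621) to 318 in the highest-numbered (89 to 2020.3), and from 2264 in the lowest-numbered males (757 to 4291) to 462 in the highest-numbered (115.5 to 1309). The slope was -0.25 ± 0.039 in females (adjusted p = 2.43e-08; rho -0.53, r -0.56) and -0.29 ± 0.024 in males (adjusted p = 7.23e-21; rho -0.77, r -0.75), the 175th and 74th steepest fall of all genes. Mmp13 fell with a slope of -0.24 ± 0.047 in females and -0.16 ± 0.033 in males, and its median in the lowest-numbered mice was 2.71 and 4.15 times that in the highest-numbered. Mmp12 fell with -0.17 ± 0.033 and -0.076 ± 0.018, and Timp2 with -0.058 ± 0.014 and -0.056 ± 0.0091. Adjusted p-values for these 3 genes were at most 0.000125 in both sexes. The fall of Mmp12 in females was not steady, with a median of 21283 in the lowest, 7213 in the middle and 10227 in the highest numbers. The fall of Timp2 in females rests on its brightest probe set, since its other 4 tested probe sets had slopes of 0.0076 to 0.023 there and did not pass. In males 2 of these 4 passed with negative slopes (-0.048 and -0.018) and 2 did not pass (-0.0078 and 0.0044).

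By their brightest probe sets, Mmp9, Mmp19 and Timp3 passed in males and not in females, with slopes of 0.10 ± 0.025, -0.056 ± 0.012 and -0.079 ± 0.028, against 0.073 ± 0.036, -0.019 ± 0.014 and -0.022 ± 0.060 in females. The other probe set of Mmp9 passed in both sexes (0.074 ± 0.033 in females, adjusted p = 0.0427, and 0.065 ± 0.021 in males). The median Mmp9 signal was 10359 in the lowest, 22068 in the middle and 11090.1 in the highest numbers of females, and 8260.0, 23204 and 11840.0 in males, so that the middle was the highest in both sexes. The middle numbers are 65 to 95 in females and 47 to 84 in males, which include the 24 males numbered 55 to 78.

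**Figure D3:**
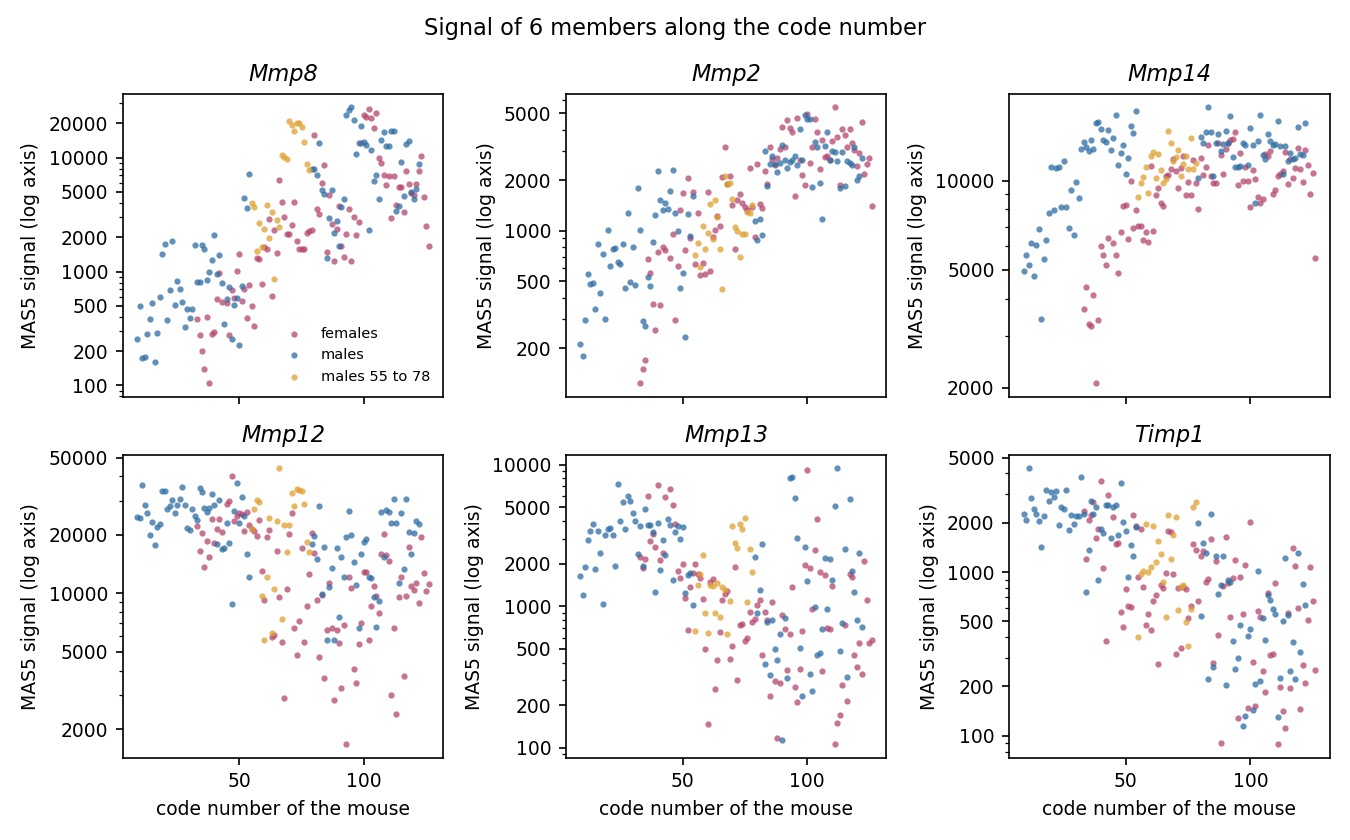
The MAS5 signal of 6 members (log axis) is plotted against the code number of the mouse for females, males and the 24 males numbered 55 to 78. By their slopes Mmp8, Mmp2 and Mmp14 rise and Mmp12, Mmp13 and Timp1 fall along the numbers in both sexes, with a wide scatter at every number. Mmp12 in females has its lowest median in the middle numbers, and Mmp8 in the 24 males spans 867 to 20935.

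The 24 males numbered 55 to 78 did not show all of these trends. Among them 3 members passed, Mmp8 and Mmp13 rising (Mmp13 by 0.62 ± 0.20, adjusted p = 0.0216) and Timp2 falling (-0.37 ± 0.078, adjusted p = 0.00101), so that Mmp13 rose within the 24 and fell over all males. The slopes of Mmp12 (0.31 ± 0.23) and Timp3 (0.27 ± 0.18) were above 0 there and did not pass. Without these males all 10 members passed in the other 90, with slopes in the same direction as over all males.

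Other transcripts moved with the code number too. The summed signal of 7 cell division genes had a rho of -0.86 with it in females and -0.79 in males, and the Gapdh ratio one of 0.30 and 0.61. The summed signal of the neutrophil markers had a rho of 0.68 and 0.73, from 718 to 45926 in females and 662 to 42012 in males. Of 8 neutrophil markers measured, 3 passed the filter (Camp, Lcn2 and S100a8), while Mpo and Elane, the granule proteins that define neutrophil precursors, had medians of 46.4 and 36.1 in females and 55.1 and 22.8 in males, and S100a9 medians of 6.2 and 7.55. Mmp8 had a rho of 0.75 with Lcn2 and 0.77 with S100a8 in females and of 0.83 with each in males. With the Gapdh and actin ratios as covariates, 19 slopes of members on the code number, over both sexes, kept their side of the threshold and 1 lost its call. In bulk cultures fewer cells of a type and less RNA per cell cannot be told apart. The part of cell division or other cells in the trends was not tested, nor that of RNA quality beyond these ratios.

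By the brightest probe sets, the slope differed between the sexes for 2 of 10 members, by the interaction of sex and code number in limma, where 9.31% of all genes passed (6.29% with a larger slope in males and 3.03% with a smaller one). The rise of Mmp2 was smaller in males, with a difference of -0.096 ± 0.033 (adjusted p = 0.0428), and so was that of Mmp14, at -0.061 ± 0.018 (adjusted p = 0.0158). The other probe set of Mmp2 passed as well (-0.094), and of the other probe sets of Mmp14, 1 passed (-0.070) and 1 did not (difference 0.0029 ± 0.017, adjusted p = 0.938). Over the code numbers that both sexes have 4 members passed, and after the medians of all arrays were made equal 1 did, Mmp12. For the other 8 members the difference did not pass, with adjusted p from 0.0676 for Mmp12 to 0.958 for Timp2, of which another probe set passed (-0.068 ± 0.021, adjusted p = 0.0218).

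Among themselves, 25 of the 45 pairs of members were related in females and 29 in males, where a pair counts when each gene passes in the fit on the other (limma, Benjamini-Hochberg over all tested probe sets). The share of all genes that passed in the fit on a member was high for most. In females it was 66.3% for Mmp2, 70.4% for Mmp8, 44.4% for Mmp9, 45.4% for Mmp12, 44.2% for Mmp13, 61.1% for Mmp14, 14.3% for Mmp19, 42.8% for Timp1, 58.3% for Timp2 and 3.87% for Timp3. In males it was 65.2%, 69.3%, 59.1%, 39.6%, 39.2%, 50.2%, 39%, 63%, 59.5% and 8.61% for the same genes in this order. In both sexes 23 pairs passed with the same sign and 0 with opposite signs. With the code number as a covariate 23 pairs passed in females and 14 in males.

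From the matrix of rank correlations 3 sets are described, and other pairs cut across them. Mmp2, Mmp8 and Mmp14 varied together, with rho of 0.74 in females and 0.64 in males for Mmp2 and Mmp8. It was 0.74 and 0.59 for Mmp2 and Mmp14, and 0.61 and 0.41 for Mmp8 and Mmp14. With the code number partialled out, Mmp2 and Mmp14 kept 0.49 and 0.44. Mmp2 and Mmp8 then had only 0.26 and 0.032, in males with an adjusted p of 0.679, and Mmp8 and Mmp14 had 0.21 and 0.11. Mmp12 and Mmp13, neighbours in the cluster, had a rho of 0.65 and 0.59 (adjusted for the code number, 0.54 and 0.51), and Mmp19 joined them with 0.35 and 0.52 to Mmp12 and 0.38 and 0.54 to Mmp13. Mmp8, from the same cluster, had a rho of -0.23 and -0.18 with Mmp13, and the pair did not pass in either sex (adjusted p = 0.0528 and 0.106). With the code number partialled out the rho of this pair was positive, 0.30 and 0.26, and with the number as a covariate it passed (adjusted p = 0.0445 and 0.0252). Across the sets, Mmp8 and Mmp9 had a rho of 0.23 and 0.57, and 0.35 and 0.57 with the number partialled out. Mmp9 and Mmp14 had 0.35 and 0.31 (partialled 0.43 and 0.22). Mmp13 had 0.60 and 0.39 with Timp1 (partialled 0.47 and 0.12) and 0.47 and 0.22 with Timp3 (partialled 0.54 and 0.16).

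Timp1 and Timp3 had the closest tie among the inhibitors, 0.72 in females and 0.51 in males, and 0.86 and 0.59 with the code number partialled out. Timp2 stood apart from Timp3, with -0.20 and -0.037, neither past the threshold. Some negative pairs linked the first set with the second: Mmp2 and Mmp12 had -0.60 and -0.54, and -0.34 and -0.39 with the code number partialled out. Other pairs between these sets were less steady. With the number partialled out, Mmp2 and Mmp13 had -0.086 and -0.054, and Mmp8 and Mmp12 had -0.045 and 0.28. Mmp14 kept -0.46 with each of Mmp12 and Mmp13 in females, and had -0.091 and -0.13 in males. In the 24 males numbered 55 to 78 only 6 pairs passed, and Mmp2 and Timp1, at -0.69 in the other 90 males, had a rho of 0.67 there.

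**Figure D4:**
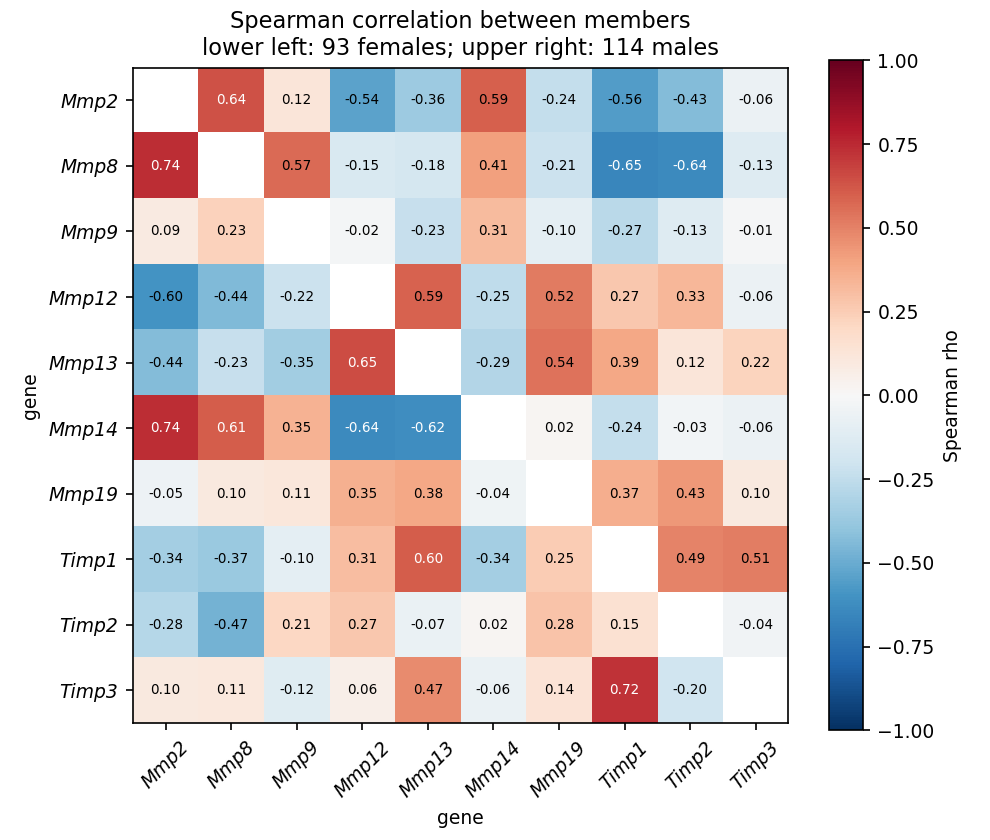
Spearman's rho between the brightest probe sets of each pair of members is printed and coloured (red positive, blue negative), for 93 females in the lower left and the males in the upper right. Mmp2 with Mmp8 and Mmp14, Mmp12 with Mmp13, and Timp1 with Timp3 are red in both sexes, and Mmp2 with Mmp12 is blue in both.

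Col1a1, the collagen I chain made by fibroblasts and osteoblasts, was measured at 8.2 to 6560.3 in females (median 263) and 8.3 to 3792 in males (median 624). In each sex 3 of 10 members passed with a positive slope on it, Timp3, Timp1 and Mmp13, where 9.12% of all genes passed in females and 5.78% in males (5.39% and 4.66% with a positive slope, 3.73% and 1.12% with a negative one). Timp3 rose by 0.66 ± 0.053 in log2 signal per log2 unit of Col1a1 in females (adjusted p = 2.97e-19; rho 0.79, r 0.79) and by 0.52 ± 0.042 in males (adjusted p = 7.92e-21; rho 0.71, r 0.76). Timp1 rose by 0.43 ± 0.051 (adjusted p = 5.30e-11; rho 0.64, r 0.65) and 0.52 ± 0.062 (adjusted p = 1.49e-11; rho 0.50, r 0.62). Mmp13 rose by 0.32 ± 0.069 (adjusted p = 0.000646; rho 0.34, r 0.43) and 0.25 ± 0.076 (adjusted p = 0.0357; rho 0.20, r 0.29).

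With the code number as a covariate Timp3 and Timp1 passed in both sexes, Mmp13 passed in females only (adjusted p = 1.11e-05, and 0.115 in males), and Mmp2 passed in both (0.13 ± 0.037 and 0.14 ± 0.041, adjusted p = 0.0130 and 0.0231). Without the 2 arrays farthest from the median of Col1a1, Pearson's r was 0.76 and 0.77 for Timp3, 0.64 and 0.61 for Timp1, and 0.42 and 0.24 for Mmp13, whose call in males was then lost. The call of Mmp13 in males was also lost on ranks and with no filter. Within the 24 males numbered 55 to 78, Timp3 (0.24 ± 0.061), Timp1 (0.35 ± 0.073) and Mmp2 (0.24 ± 0.048) passed, and so did Mmp19 with a negative slope (-0.098 ± 0.027, adjusted p = 0.0343).

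The tie was with stromal transcripts as a group and not with Col1a1 alone. All 13 other stromal markers tested passed with a positive slope on Col1a1 in each sex, and the summed stromal signal had a rho of 0.80 in females and 0.66 in males with Timp3, and of 0.62 and 0.60 with Timp1. Timp1 had a rho of 0.85 and 0.81 with the collagen VI chain Col6a2, and Timp3 one of 0.85 and 0.70 with the collagen III chain Col3a1. For Mmp9, Mmp12 and Mmp14 the rho with the stromal sum lay between -0.16 and 0.086 in both sexes.

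**Figure D5:**
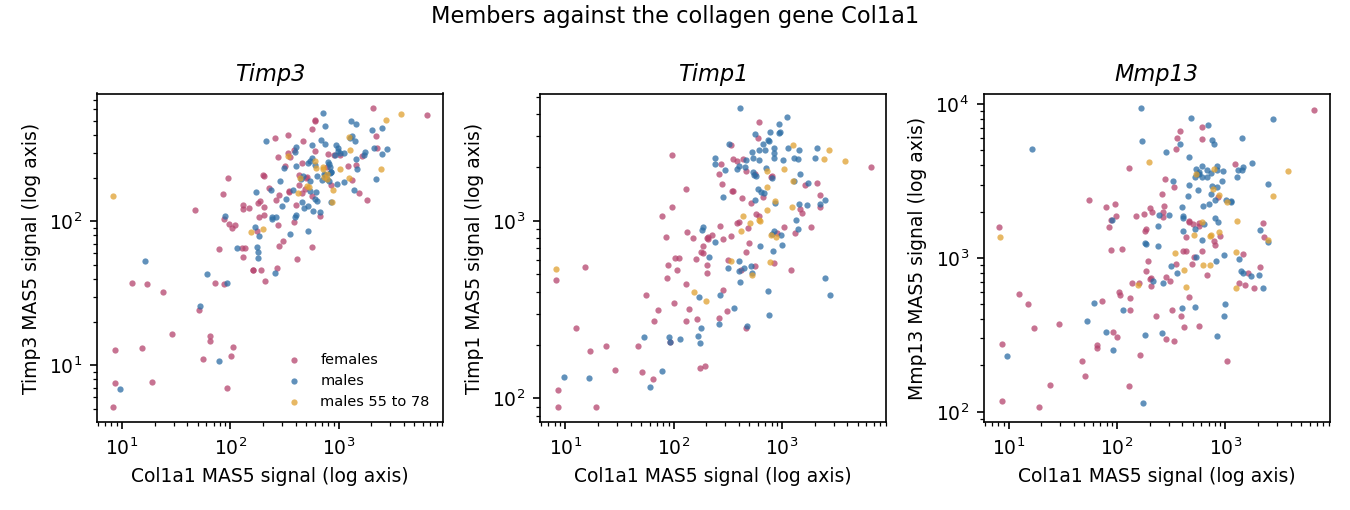
The MAS5 signals of Timp3, Timp1 and Mmp13 are plotted against that of Col1a1 (both axes log) for females, males and the 24 males numbered 55 to 78. Timp3 and Timp1 climb with Col1a1 over its whole range (rho 0.50 to 0.79), and the scatter of Mmp13 is wider (rho 0.34 in females and 0.20 in males).

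Acp5, the tartrate-resistant acid phosphatase used as an osteoclast marker and also made by macrophages, was measured at 926 to 4993 in females (median 2267) and 935.5 to 6305 in males (median 2439). In females 4 of 10 members passed in the fit on it, where 7.72% of all genes did (4.42% with positive and 3.3% with negative slopes): Mmp12 (0.57 ± 0.16, adjusted p = 0.0212; rho 0.32) and Mmp13 (0.81 ± 0.24, adjusted p = 0.0246; rho 0.33) with positive slopes, and Mmp9 (-0.54 ± 0.16, adjusted p = 0.0311; rho -0.37) and Mmp14 (-0.28 ± 0.093, adjusted p = 0.0465; rho -0.25) with negative ones. Without the 2 arrays farthest from the median of Acp5 only Mmp9 passed, and with no filter only Mmp12, while the slopes stayed close to these values (0.53 for Mmp12, 0.76 for Mmp13, -0.62 for Mmp9 and -0.28 for Mmp14 without the 2 arrays). With the code number as a covariate all 4 passed (adjusted p from 3.9e-05 for Mmp14 to 0.0064 for Mmp9), and Mmp2 (-0.39 ± 0.12, adjusted p = 0.0154) and Mmp8 (-0.61 ± 0.19, adjusted p = 0.0160) passed too. The median Acp5 signal was 2540, 1675 and 2998 in the lowest, middle and highest numbers of females. In males it was 2342, 1966 and 3215. The covariate is linear in the number and does not take out such a course, so these relations are not free of the number.

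In males 4 members passed, where 35.5% of all genes did (17.6% and 17.9%), namely Mmp2 (0.51 ± 0.16, adjusted p = 0.00746) and, with negative slopes, Mmp9 (-0.44 ± 0.14, adjusted p = 0.00861), Timp1 (-0.60 ± 0.18, adjusted p = 0.00709) and Timp2 (-0.18 ± 0.053, adjusted p = 0.00636). Mmp12 and Mmp13 had slopes of 0.075 ± 0.10 and 0.14 ± 0.19 and did not pass. These values depended on other differences between the males. Acp5 itself rose with the code number in males (0.074 ± 0.016, adjusted p = 3.00e-05), and with the number as a covariate the slopes of Mmp2 and Timp1 were -0.0374 and 0.00724, while Mmp9 (-0.77 ± 0.13), Mmp14 (-0.21 ± 0.056) and Mmp8 (-0.65 ± 0.20) passed with negative slopes and Mmp12 (0.28 ± 0.10) and Mmp13 (0.56 ± 0.18) with positive ones. The Acp5 signal was also lower in the 24 males numbered 55 to 78 (median 1649.6, against 2765 in the other 90), and without them the slope of Mmp9 was 0.0120 ± 0.16. Mmp2 (0.67 ± 0.21), Timp1 (-0.87 ± 0.24) and Timp2 (-0.19 ± 0.067) passed without them. Timp2 did not pass with the number as a covariate (-0.070 ± 0.052). Mmp12 and Mmp13 had -0.086 ± 0.12 and -0.10 ± 0.26 in the other 90 and did not pass. Within the 24 they passed with 0.97 ± 0.27 and 1.14 ± 0.25. The sign of Mmp8 depended on the setting: it was 0.48 ± 0.30 over all males, and it passed with a positive slope both without the 24 males (1.07 ± 0.37, adjusted p = 0.0237) and within them (1.62 ± 0.47, adjusted p = 0.0124).

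The osteoclast markers did not vary as 1 group. In females and males, rho with the code number was 0.094 and 0.37 for Acp5, 0.52 and 0.28 for Ctsk, and 0.52 and 0.50 for Nfatc1. It was -0.51 and -0.54 for Dcstamp and -0.57 and -0.54 for Atp6v0d2. Of 9 measured, 5 passed the filter, and Calcr and Ocstamp, which mark mature osteoclasts, had medians of 16.6 and 7.2 in females and 24.55 and 6.9 in males. The summed osteoclast signal, 3251 to 24481 in females and 3135 to 18869 in males, had a rho with Mmp12 of 0.84 and 0.76 and with Mmp13 of 0.61 and 0.53, where Acp5 alone had 0.32 and 0.018 with Mmp12. Within the sum Atp6v0d2, a proton pump subunit that takes part in the fusion of macrophages, had a rho of 0.93 and 0.90 with Mmp12, and Dcstamp, the fusion receptor, had 0.73 and 0.68. The sum adds raw signals, and Atp6v0d2 had the widest range in it, 230 to 15757 in females and 193 to 12794 in males. The rho of the sum with Mmp12 therefore partly repeats that of Atp6v0d2. Nfatc1, the transcription factor of osteoclast formation, went the other way, with -0.60 and -0.47.

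The transcripts most like each member were named by the lower of the Spearman coefficients of the sexes, over all mice of each sex. For Mmp8 they were Kdm7a, Emb and the glucose transporter gene Slc2a1 (0.93 each), and for Mmp12 another probe set of Atp6v0d2 (0.93), the transcription factor gene Egr2 (0.90) and the integrin gene Itgax (0.87). For Mmp2 they were Emc2 (0.86), Sgce (0.85) and Jak2 (0.85), for Timp1 Ltbp2, Csf1 and Fads3 (0.85, 0.85 and 0.84), and for Timp2 Tpra1 (0.82), Trem2 (0.81) and Rragd (0.79). For Mmp13 they were Sphk1 (0.78), Cystm1 (0.72) and Slc20a1 (0.68), for Timp3 the contractile genes Tpm2 (0.73) and Actg2 (0.72) and the collagen chaperone gene Serpinh1 (0.71), and for Mmp9 Sod2 (0.71), Tspyl1 (0.66) and Smarcd2 (0.65). Mmp14 (Cybb, 0.68, Diaph2, 0.67, and Dram1, 0.66) and Mmp19 (Tmem43, 0.58, Pi4k2b, 0.57, and Sgms1, 0.56) had first neighbours below those of the other members. The coefficients are over mice that also differ in code number, and they were not adjusted for it.

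Of the other genes of the family, 13 of 18 listed metalloproteinases and inhibitors were measured and 4 passed the filter. Mmp3, the stromelysin of the same cluster, had a signal of 10.7 to 1950.2 in females (median 134) and 34.2 to 2685 in males (median 262), was 1.71-fold higher in males (adjusted p = 0.00922) and fell with the code number (-0.14 ± 0.050 and -0.16 ± 0.033). Mmp10, further along, fell as well (-0.20 ± 0.044 and -0.086 ± 0.023) and had no called difference between the sexes. Mmp23 was 1.81-fold higher in males (adjusted p = 0.00916) and fell with the code number in males (-0.21 ± 0.035, adjusted p = 1.15e-07), with -0.054 ± 0.054 in females, and Mmp24 passed in neither comparison. Mmp1a, Mmp1b, Mmp7 and Mmp20, from the same cluster, had medians of 10.35 to 22.5 and did not pass the filter, nor did Timp4 and Reck, the other inhibitors.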

How the data were processed

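Bone marrow macrophages of 207 mice were each hybridised to 1 single-colour array. The deposited values are MAS5 intensities, which the authors computed with Affymetrix Microarray Suite (MAS 5.0) and scaled so that the trimmed mean of each array, without the outer 2%, is 500. They are linear, were deposited after scaling, and were not rescaled here. Probe sets were named through the platform annotation, which gives 1 gene symbol to 34958 of its 35890 probe sets, and 64 control probe sets were kept apart. Probe sets with a signal of at least 100 in 69 arrays were tested (20036 of 45037). A gene was represented by its brightest probe set.

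The sexes were compared by the Mann-Whitney test (scipy 1.17.1) with Bonferroni adjustment. Slopes on the code number, on another transcript or on another member were fitted on log2(signal + 1) with limma 3.58.1 in R 4.3.3, in each sex, with Benjamini-Hochberg adjustment over all tested probe sets. Correlation coefficients are given as descriptions. The fit on the code number and the Mann-Whitney test of the sexes were tested on simulated data, and the other fits were not. Alternatives were a floor of 200, no filter, a pseudocount of 16, ranks, equal array medians, covariates (code number, RNA quality ratios), limma for the sexes, only the code numbers both sexes have, and fits without the 2 arrays farthest from the median of the other transcript or without the males numbered 55 to 78, while fits of only those males were added after the data were seen. The members and gene lists were chosen with earlier results of these data known. The text names every member, by role, the listed genes of the family that passed the filter, and the 3 transcripts with the highest likeness to each member. Genotypes of single mice were not used here, since their codes match no array label. The number of arrays limits the precision.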

Additional observations from a re-analysis of the deposited data

Results flagged for a closer look

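The code number trend of 2 members differed between the sexes by the interaction term. For Mmp2 the slope in males minus that in females was -0.096 (log2 per 10 numbers) and for Mmp14 it was -0.061, so that by their brightest probe sets both rose less steeply in males. Of the 3 probe sets of Mmp14, 1 had a difference of 0.0029 and did not pass.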

How the results depend on the processing

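Of the counts of members or pairs that passed, 66 stayed within 1.5 times their main value and 8 did not. Of the values for single members and pairs, 557 kept their direction and their side of the threshold, 30 lost a call, 25 gained one and 48 changed sign. Of the 48, 35 passed in neither setting, and the other 13 are given here. With Benjamini-Hochberg adjustment 8 members differed between the sexes in place of 3, where 64.2% of all genes did in place of 30.5%. In only the males numbered 55 to 78, 3 members passed for the code number and 6 pairs passed, and the slopes of Mmp12 (0.31), Mmp13 (0.62), Mmp19 (0.017), Timp1 (0.0074) and Timp3 (0.27) had the opposite sign to those over all males, as had Mmp2 on Acp5 (-0.050). Fewer arrays enter that fit. On Acp5 in females 1 member passed with no filter and 1 without the 2 farthest arrays. On Acp5 in males, among values called in at least 1 of the settings compared, the sign changed for Mmp14 (0.21) and Timp2 (0.13) with equal array medians, which moved the median Acp5 slope of all tested probe sets from -0.0044 to 0.21, for Mmp2 (-0.037), Mmp8 (-0.65) and Timp1 (0.0072) with the code number as a covariate, and for Mmp9 (0.012) without the males numbered 55 to 78. The difference of the trend between the sexes was called for 1 member with equal medians and for 4 over the numbers both sexes have, where Mmp9 changed sign (-0.17). With the code number as a covariate 14 pairs passed in males. The cause of these changes was not tested. No paired analysis was possible because the replicate numbers only count the arrays within a sex and join no female to a male.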

Other observations

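Among genes of other protease systems, Serpinb2, an inhibitor of plasminogen activators, rose with the code number. Its slope was 0.57 log2 units per 10 numbers in females and 0.53 in males, with a rho of 0.74 in each sex. Adam19 rose as well (0.23 and 0.20), and Adam15 fell (-0.090 and -0.066), with adjusted p-values of at most 8.66e-10 for Adam19 and 2.85e-09 for Adam15 (limma, Benjamini-Hochberg). Of 9 tested ADAM and ADAMTS genes 1 differed between the sexes, Adam15, 1.27-fold higher in females (Mann-Whitney test, Bonferroni-adjusted p = 0.00203).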
